A study of Homo sapiens with 24 samples.

Results

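Genes of the kinetochore, the centromere and the condensed mitotic chromosome were examined in triple-negative breast cancer (TNBC) cell lines. The set held 37 genes chosen by name. Of these, 16 act at the inner kinetochore and centromere, 14 at the outer kinetochore and in the spindle checkpoint, 2 protect centromeric cohesion and 5 form condensin. The tables listed 19283 genes for Hs578T, 18248 for HCC70, 60651 for the depletion experiment and 23792 for the overexpression experiment. Of the 37 genes, 33 were listed under the same symbol in all 4 tables. The other 4 appeared in some tables under an older or newer symbol, CENPC as CENPC1, CENPU as MLF1IP, SGO1 as SGOL1 and SGO2 as SGOL2.

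Expression was measured by RNA-Seq of poly-A RNA in 24 libraries, 3 biological replicates for each of 8 conditions. Breast cancer stem-like cells (BCSCs) were sorted by FACS as CD24-CD44+ and ALDH+ cells from wild-type Hs578T and from wild-type HCC70, and non-BCSCs of the same line were cells lacking both phenotypes. MDA-MB-231 cells were infected with lentivirus and selected with puromycin, and carried either control sgRNA or KIF20A sgRNA #1, labelled as a knockdown. In the last experiment MDA-MB-231 cells carried an empty vector (EV) or a KIF20A overexpression (OE) construct. All 3 are established TNBC lines, and only 1 sgRNA was profiled. KIF20A is a kinesin that acts late in mitosis.

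The kinetochore is the protein assembly that joins a chromosome to spindle microtubules. The histone variant CENP-A marks the centromere, the inner kinetochore is built on CENP-A chromatin, and the outer kinetochore binds microtubules and holds the checkpoint that delays anaphase until all chromosomes are attached. Shugoshins protect cohesin at the centromere, and condensin compacts the arms; many of these genes are transcribed most in late G2 and mitosis, and a mixed population with more dividing cells holds more of their mRNA.

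Depth was 15971297 to 51018667 reads per library. Every one of the 37 genes exceeded the minimum mean of 1 in every table, with 109 reads (CENPP in an EV library) to 38093 reads (CENPF in an HCC70 BCSC library) per gene and library. KIF20A, the targeted gene, was 153, 173 and 156 in the control sgRNA libraries and 122, 145 and 91.1 in the KIF20A sgRNA libraries, in the deposited normalised values. In the overexpression experiment it was 101, 143 and 124 CPM with EV, and the libraries labelled KIF20A OE had 1348, 269 and 896 CPM. Marker genes of mesenchymal-like lines summed to 5538 to 6856 in the other MDA-MB-231 libraries but the libraries labelled KIF20A OE had sums of 381 to 844 CPM and so stood apart from their cell line label. Counts below are of genes with an adjusted p under 0.05 by limma on log2(value + 1), two-sided, with Benjamini-Hochberg adjustment over all genes of a table. Fold changes are on this log2 scale and are given with their standard error (SE).

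Within the sorted lines, where TPM is scaled by transcript length and levels can be compared between genes, condensin mRNAs were the most abundant group and the cohesion protectors the least. In Hs578T non-BCSCs, the median level was 128 TPM over 5 condensin genes, 81.6 TPM over 14 outer genes, 54.7 TPM over 16 inner genes and 34.0 TPM over the shugoshin pair. The same order held in HCC70 non-BCSCs, with medians of 78.7, 64.5, 40.6 and 19.6 TPM. Ranges overlapped, since inner genes alone ran from 5.89 to 142 TPM and condensin genes from 33.8 to 199 TPM in Hs578T non-BCSCs. SMC4, an ATPase of the condensin core, had the highest mean in non-BCSCs of both lines, 199 TPM in Hs578T and 226 TPM in HCC70. MAD2L1, a checkpoint protein that inhibits the anaphase-promoting complex, followed at 193 TPM in Hs578T, and its 3 libraries overlapped those of SMC4. CENPP, a subunit of the CENP-O complex, was the lowest in all 4 sorted groups, at 5.46 to 6.79 TPM. The lines ranked some genes differently: NUF2 had a mean of 188 TPM in Hs578T non-BCSCs and HJURP one of 142 TPM, while CENPF, at 168 TPM, and NDC80, at 131 TPM, followed SMC4 in HCC70 non-BCSCs.

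The first question was which of these genes differ between BCSCs and non-BCSCs. In Hs578T, 9 of the 37 (24.3%) were higher in BCSCs and 0 were lower, against 2.9% of all 13324 genes tested called higher and 4.26% called lower. In HCC70, 11 of the 37 (29.7%) were higher and 0 lower, against 2.28% and 0.552% of 13218 genes. The median log2 fold change over the 37 was 0.14 in Hs578T and 0.21 in HCC70, where the medians of all genes tested were -0.01 and 0.02. Fold changes were above 0 for 34 genes in Hs578T and 33 in HCC70 (45.4% and 56.0% of all genes tested). All 3 BCSC libraries exceeded all 3 non-BCSC libraries for 23 of the 37 in Hs578T, against 12.0% of all genes, and for 20 in HCC70, against 20.9%. Separated groups in the other direction were seen for 0 of the 37 in either line, against 17.0% and 10.1% of all genes. At an unadjusted p under 0.05, 21 genes were higher in Hs578T (8.98% of all genes) and 20 in HCC70 (16.0%), and 0 were lower in either line (13.5% and 7.74%). In bulk RNA, fewer cells of a type and less RNA per cell cannot be told apart. Leaving out 1 library moved these counts: 5 genes passed in Hs578T without non-BCSC replicate 1, 3 without non-BCSC replicate 2 and 2 (HJURP and NUF2) without BCSC replicate 1, and in HCC70 6 passed without non-BCSC replicate 2, 1 (CENPF) without BCSC replicate 1, 6 without BCSC replicate 2 and 5 without BCSC replicate 3. Higher calls over all genes fell in the same fits, from 386 to 220, 144 and 154 of 13324 in Hs578T. In HCC70 they fell from 301 to 104, 22, 76 and 62 of 13218. With whole reads, edgeR and DESeq2 each called 20 higher in Hs578T, and they called 13 and 17 in HCC70. Higher calls over all genes were also more numerous, from 386 by limma to 810 and 739 in Hs578T and from 301 to 407 and 642 in HCC70.

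**Figure D1:**
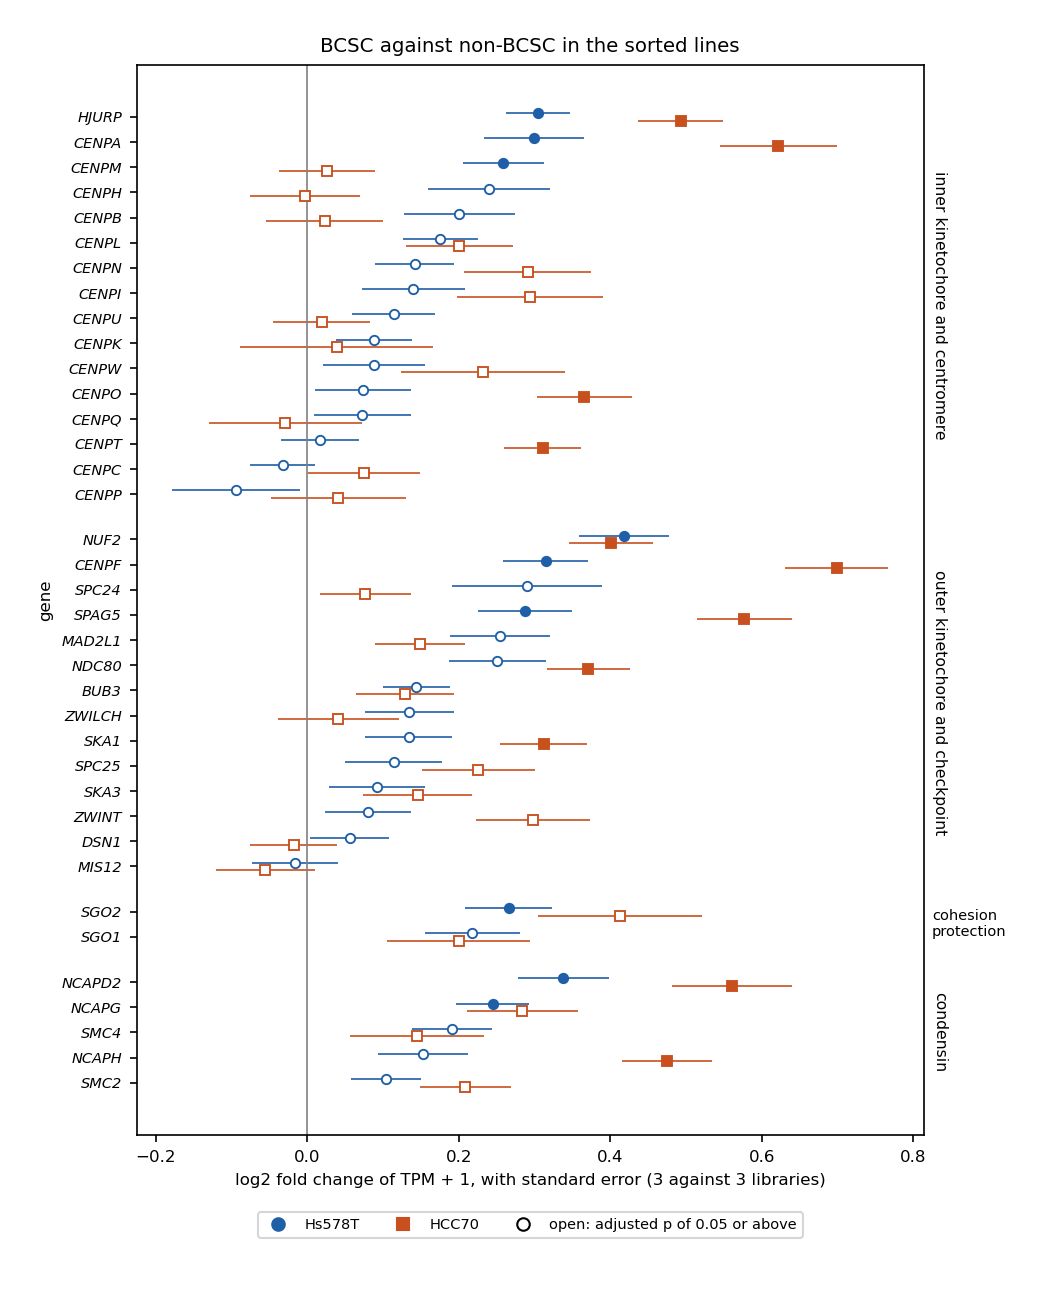
Log2 fold change of TPM + 1 between BCSCs and non-BCSCs for each of the 37 genes (y axis, by functional group) in Hs578T (blue circles) and HCC70 (orange squares), with bars of 1 standard error from 3 against 3 libraries and filled symbols for an adjusted p under 0.05. Filled symbols all lie above 0, with CENPF in HCC70 the farthest at 0.70.

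At the inner kinetochore and centromere, 3 of 16 genes rose in Hs578T BCSCs (median log2 fold change 0.13) and 4 of 16 in HCC70 BCSCs (median 0.14), and CENPA and its chaperone HJURP were among them in both lines. CENPA (chr2:26764289-26801067 on GRCh38) encodes the centromeric histone H3 variant. It was 74.2, 79.0 and 66.2 TPM in Hs578T non-BCSCs and 92.4, 88 and 89.7 TPM in BCSCs. HCC70 had 35.7, 34.4 and 40.1 TPM in non-BCSCs and 59.1, 59.4 and 52.6 TPM in BCSCs. Groups did not overlap in either line, and the log2 fold change was 0.30 (SE 0.07, adjusted p = 0.0358) in Hs578T and 0.62 (SE 0.08, adjusted p = 0.00966) in HCC70. HJURP (chr2:233833416-233854566), which deposits CENP-A at centromeres, was 144, 145 and 136 TPM in Hs578T non-BCSCs and 176, 173 and 176 TPM in BCSCs. HCC70 values were 38.3, 38.3 and 41.1 TPM in non-BCSCs and 55.9, 53.5 and 57.3 TPM in BCSCs. The groups were again separate, and HJURP rose by 0.30 (SE 0.04, adjusted p = 0.00649) and by 0.49 (SE 0.06, adjusted p = 0.00788). HJURP passed in Hs578T under all 15 settings tried, and CENPA under 11.

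Other inner genes passed in 1 line only. CENPM, of the CENP-H/I/K/M complex, was 59.6, 63.8 and 62.0 TPM in Hs578T non-BCSCs against 73.1, 78.7 and 70.8 TPM in BCSCs, a log2 fold change of 0.26 (SE 0.05, adjusted p = 0.0281). Its HCC70 libraries overlapped, with a log2 fold change of 0.03 (SE 0.06, adjusted p = 0.836). CENPO and CENPT passed in HCC70, each under only 7 of the 15 settings tried. CENPT, which links centromeric chromatin to the NDC80 complex, was 43.7, 46.0 and 45.7 TPM in HCC70 non-BCSCs and 54.8, 57.0 and 56.8 TPM in BCSCs, a log2 fold change of 0.31 (SE 0.05, adjusted p = 0.0262). In Hs578T, it was 32.9, 31.6 and 33.2 TPM against 33.8, 31.1 and 34.0 TPM, and the groups overlapped (0.02, SE 0.05, adjusted p = 0.883). CENPO, of the CENP-O complex, was 23.5, 24.8 and 24.5 TPM in HCC70 non-BCSCs and 33.6, 29.7 and 31.6 TPM in BCSCs (0.37, SE 0.06, adjusted p = 0.0306). CENPO and CENPT each overlap exons on the opposite strand in GENCODE 44, by up to 1488 bases of ADCY3 or PTRHD1 and 596 bases of NUTF2, THAP11 or TSNAXIP1. CENPC, the other main link from CENP-A chromatin to the outer kinetochore, was 22.0, 21.6 and 22.1 TPM in Hs578T non-BCSCs and 21.9, 21.0 and 21.3 TPM in BCSCs. Its HCC70 values were 29.5, 26.1 and 28.1 TPM against 30.9, 27.0 and 30.4 TPM, and neither line separated its groups (-0.03 and 0.08 on the log2 scale, adjusted p = 0.712 and 0.578). Log2 fold changes of the inner genes that passed in neither line ran from -0.09 to 0.24 in Hs578T and from -0.03 to 0.29 in HCC70.

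At the outer kinetochore and checkpoint, 3 of 14 genes rose in Hs578T BCSCs (median 0.14) and 5 of 14 in HCC70 BCSCs (median 0.19). CENPF, NUF2 and SPAG5 passed in both lines. CENPF (chr1:214603185-214664574), a large protein that binds microtubules and peaks in G2 and mitosis, was 143, 141 and 128 TPM in Hs578T non-BCSCs and 175, 164 and 174 TPM in BCSCs. Its HCC70 levels were 173, 154 and 178 TPM in non-BCSCs and 279, 262 and 279 TPM in BCSCs. The log2 fold change was 0.32 (SE 0.06, adjusted p = 0.017) in Hs578T and 0.70 (SE 0.07, adjusted p = 0.00546) in HCC70, the largest of the 37 there, with separate groups in both. CENPF was the only one of the 37 that passed in HCC70 under all 15 settings tried.

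NUF2 (chr1:163266576-163355764) and NDC80 form the microtubule-binding arm of the NDC80 complex, and SPC24 and SPC25 the end that faces the chromosome. NUF2 was 198, 193 and 172 TPM in Hs578T non-BCSCs and 255, 253 and 244 TPM in BCSCs. HCC70 showed 71.5, 66.4 and 69.6 TPM in non-BCSCs and 96.1, 88.7 and 90.1 TPM in BCSCs. Its rise was of like size in the lines, with log2 fold changes of 0.42 (SE 0.06, adjusted p = 0.00679) and 0.40 (SE 0.06, adjusted p = 0.0151). NDC80 was 123, 124 and 106 TPM in Hs578T non-BCSCs and 140, 139 and 140 TPM in BCSCs. In HCC70 it was 132, 125 and 136 TPM against 173, 163 and 172 TPM. Both lines separated its groups, but NDC80 passed in HCC70 (0.37, SE 0.05, adjusted p = 0.0188) and not in Hs578T (0.25, SE 0.06, adjusted p = 0.0574). For SPC24 the values were 71.2, 72.4 and 81.7 TPM against 82.3, 107 and 88 TPM in Hs578T, and 82.9, 86.7 and 88.5 TPM against 93.4, 94.2 and 85.0 TPM in HCC70. For SPC25 they were 35.9, 33.0 and 30.9 TPM against 34.3, 36.6 and 37.2 TPM, and 22.6, 19.5 and 22.0 TPM against 25.2, 23.7 and 26.4 TPM. Each pair of groups thus overlapped in 1 line, Hs578T for SPC25 and HCC70 for SPC24, and neither gene passed in either line (log2 fold changes 0.08 to 0.29, adjusted p 0.128 to 0.469).

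SPAG5 (chr17:28577565-28599025), the spindle protein astrin, was 88.4, 91.6 and 84.2 TPM in Hs578T non-BCSCs and 110, 99.1 and 114 TPM in BCSCs. HCC70 levels were 48.6, 51.1 and 55.5 TPM in non-BCSCs and 80.1, 77.5 and 75.2 TPM in BCSCs. Groups were separate, with rises of 0.29 (SE 0.06, adjusted p = 0.0339) and 0.58 (SE 0.06, adjusted p = 0.00633); SPAG5 shares up to 485 exon bases with another annotated gene on its own strand. SKA1, of the complex that keeps kinetochores on shrinking microtubules, passed in HCC70, where it was 31.3, 30.4 and 29.6 TPM in non-BCSCs and 38.3, 36.1 and 39.7 TPM in BCSCs (0.31, SE 0.06, adjusted p = 0.0401). In Hs578T it was 49.1, 50 and 43.7 TPM against 52.2, 52.0 and 52.6 TPM (0.13, SE 0.06, adjusted p = 0.217). SKA3, its partner, had log2 fold changes of 0.09 and 0.15 and overlapping groups in both lines. Of the 15 settings tried, SPAG5 passed under 8 in Hs578T and 14 in HCC70, and SKA1 under 7 in HCC70. The rest of the outer group did not pass in either line. The checkpoint genes MAD2L1 and BUB3 were 201, 198 and 178 TPM against 242, 234 and 213 TPM, and 172, 173 and 163 TPM against 186, 184 and 193 TPM, in Hs578T. Their groups were separate there but did not pass (adjusted p = 0.0625 and 0.0976), and log2 fold changes in HCC70 were 0.15 and 0.13. ZWINT, which recruits the Rod-Zw10-Zwilch complex, was 83.5, 90.1 and 101 TPM in HCC70 non-BCSCs and 116, 113 and 108 TPM in BCSCs (0.30, SE 0.07, adjusted p = 0.0726), and overlapped in Hs578T (0.08, SE 0.06). DSN1 and MIS12, subunits of the MIS12 complex that joins the inner and outer layers, overlapped in both lines, and differed by 0.06 and -0.02 in Hs578T and by -0.02 and -0.05 in HCC70.

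Both shugoshins had fold changes above 0 in both lines, and SGO2 passed in Hs578T. SGO2, which recruits phosphatase to protect cohesin, was 52.9, 51.2 and 46.2 TPM in Hs578T non-BCSCs and 60.6, 61.4 and 59.0 TPM in BCSCs (0.27, SE 0.06, adjusted p = 0.0332). In HCC70 it was 23.0, 20.9 and 22.0 TPM against 27.5, 26.4 and 35.4 TPM (0.41, SE 0.11, adjusted p = 0.0794), where BCSC replicate 3 lay well above the other BCSC libraries. SGO1 was 19.3, 17.5 and 16.6 TPM against 21.0, 21.5 and 20.0 TPM in Hs578T and 19.5, 15.7 and 16.6 TPM against 20.4, 18.2 and 21.1 TPM in HCC70. Its groups were separate in Hs578T and overlapped in HCC70, and it passed in neither (adjusted p = 0.087 and 0.241).

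All 5 condensin genes had fold changes above 0 in both lines, with medians of 0.19 in Hs578T and 0.28 in HCC70, and 2 of 5 passed in each. NCAPD2 (chr12:6493356-6531955), a HEAT-repeat subunit of condensin I, passed in both. It was 131, 135 and 136 TPM in Hs578T non-BCSCs and 172, 156 and 182 TPM in BCSCs (0.34, SE 0.06, adjusted p = 0.017). In HCC70 it was 70.0, 83.8 and 82.4 TPM in non-BCSCs and 116, 111 and 122 TPM in BCSCs (0.56, SE 0.08, adjusted p = 0.0151). Neither line's groups overlapped. NCAPG, the other HEAT-repeat subunit, was 134, 130 and 122 TPM against 155, 149 and 152 TPM in Hs578T, where it passed (0.24, SE 0.05, adjusted p = 0.0237). In HCC70 it was 53.7, 48.4 and 47.8 TPM against 61.3, 56.6 and 65.5 TPM (0.28, SE 0.07, adjusted p = 0.0764). NCAPH, the kleisin that bridges the SMC ATPases, was 35.2, 33.8 and 32.6 TPM against 38.1, 35.2 and 40.1 TPM in Hs578T (0.15, SE 0.06, adjusted p = 0.174). In HCC70 it was 32.8, 34.6 and 34.4 TPM against 46.8, 45.7 and 50.4 TPM, and passed (0.48, SE 0.06, adjusted p = 0.00956). SMC2 and SMC4, the ATPases shared by both condensins, did not pass in either line. SMC4 was 209, 203 and 185 TPM against 227, 230 and 223 TPM in Hs578T and 251, 203 and 225 TPM against 255, 230 and 265 TPM in HCC70. SMC2 was 56.2, 55.8 and 51.9 TPM against 59.0, 58.8 and 58.5 TPM, and 81.0, 74.3 and 81.4 TPM against 92.1, 87.2 and 94.6 TPM. Groups were separate in each of these but SMC4 in HCC70, and log2 fold changes were 0.10 to 0.21.

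Taking the lines side by side, 6 of the 37 rose in BCSCs of both, CENPA, CENPF, HJURP, NCAPD2, NUF2 and SPAG5. They are 66.7% of the Hs578T list of 9 and 54.5% of the HCC70 list of 11, and 0.686% of the 11666 genes tested in both tables were called higher in both. CENPM, NCAPG and SGO2 passed in Hs578T alone, CENPO, CENPT, NCAPH, NDC80 and SKA1 in HCC70 alone, and 23 passed in neither. Whether the BCSC effect differs between the lines was tested by an interaction in limma over the 12 sorted libraries, with line and table the same factor. The difference, HCC70 minus Hs578T, passed for 3 of the 37 and was above 0 for each, against 5.62% of all genes called above and 1.49% below. It was above 0 for 22 of the 37 (59.5%, against 58.0% of all genes), and at an unadjusted p under 0.05 it was above for 9 and below for 1 (18.4% and 8.46% of all genes). It was 0.38 (SE 0.09, adjusted p = 0.0286) for CENPF, 0.29 (SE 0.07, adjusted p = 0.0265) for CENPT and 0.32 (SE 0.08, adjusted p = 0.0386) for NCAPH. The share of the 37 was thus close to that of all genes, and the median difference was 0.11, with 0.04 over all genes tested. For NUF2 the difference was -0.02 (SE 0.08) and for CENPA 0.32 (SE 0.11, adjusted p = 0.0833), and for CENPM, NCAPG and SGO2 it did not pass (adjusted p = 0.099, 0.813 and 0.50). Under the median of ratios only CENPF passed. With 1 library left out, 0 of the 37 passed without Hs578T non-BCSC replicate 1 or 2, Hs578T BCSC replicate 1 or 2, or HCC70 BCSC replicate 1 or 3. In each of these fits 7 or 8 of the 37 were above 0 at an unadjusted p under 0.05. The share of all genes at that threshold was 18.4% in the full fit and is not given for these fits. In these fits 237 to 418 of all 11666 genes were called above 0, against 656 in the full fit. With HCC70 non-BCSC replicate 1 left out 1 gene passed, beside 381 above and 83 below of all 11666 genes. Without HCC70 non-BCSC replicate 3, 5 above and 1 below passed, beside 700 and 199 of all genes. Without Hs578T BCSC replicate 3, 5 above passed, beside 913 and 312 of all genes.

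**Figure D2:**
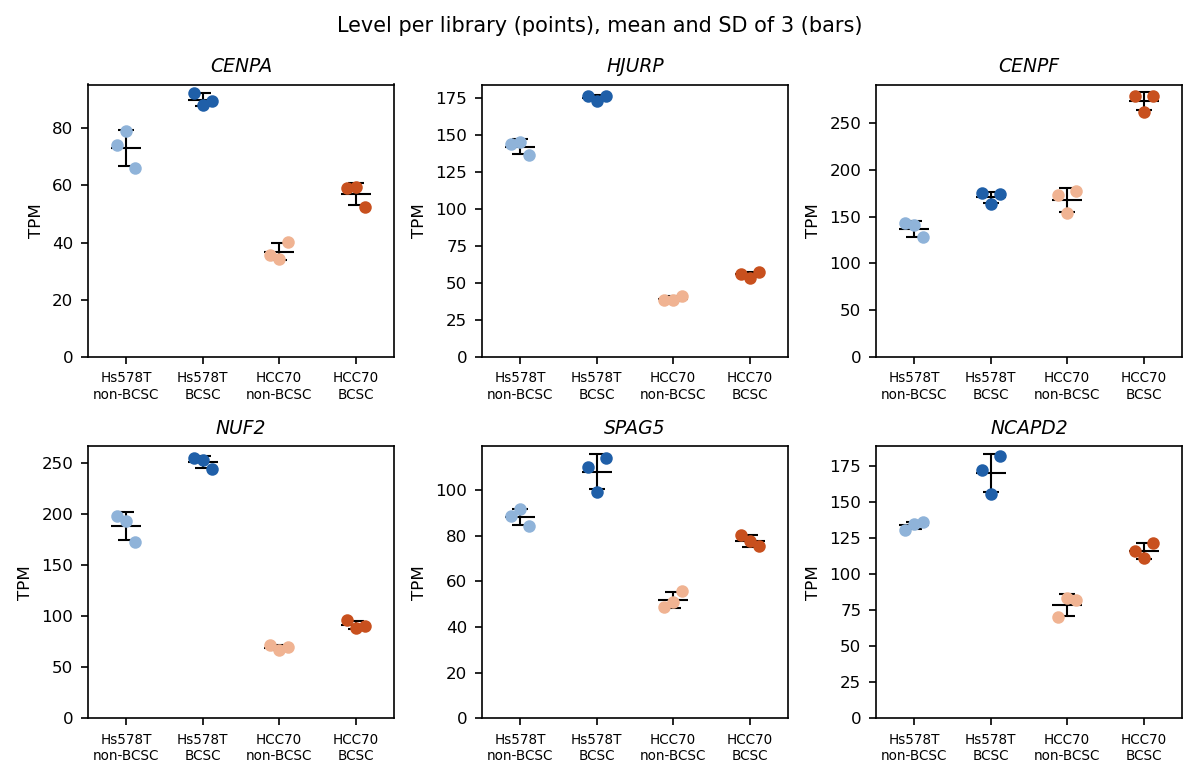
Level in TPM (y axis, from 0) of the 6 genes called higher in BCSCs of both lines, 1 panel for each gene, in the 4 sorted groups (x axis), with a point for each library and bars for the mean and SD of 3. In each panel the BCSC points of a line lie above its non-BCSC points, as for CENPF in HCC70 at 262 to 279 TPM against 154 to 178 TPM.

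Other cell cycle genes moved with this result. Of 14 G2/M genes outside the 37, 12 rose in Hs578T BCSCs (median 0.35) and 12 in HCC70 BCSCs (median 0.57), and all 14 had an unadjusted p under 0.05 in each line. Among them CCNB1, the mitotic cyclin B, had a log2 fold change of 0.47 (adjusted p = 0.00341) in Hs578T. Of 14 S phase genes, 0 passed by limma in either line; 2 were higher in Hs578T, and 1 was higher and 2 lower in HCC70, at an unadjusted p under 0.05, with medians of 0.06 and -0.08. KIF20A rose by 0.45 (SE 0.06, adjusted p = 0.00718) and 0.80 (SE 0.05, adjusted p = 0.00157). Of 35 further kinetochore, checkpoint and chromosome structure genes that were tested, 7 rose in each line and 0 fell, with medians of 0.08 and 0.14. The largest in Hs578T were CENPE (0.38), a kinetochore kinesin, KNSTRN (0.35), the partner of SPAG5, PTTG1 (0.29), the securin that holds back separase, and BUB1B (0.28), a checkpoint kinase homologue. In HCC70 they were ESPL1 (0.70), which encodes separase, PTTG1 (0.63), BUB1 (0.62), a checkpoint kinase, and KNSTRN (0.58). The part of the share of dividing cells in the rise of the 37 was not tested.

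Promoter sequence was described for the genes that rose in both lines. Cell cycle genes of G2 and mitosis often carry a CHR element and CCAAT boxes close to their start. In RefSeq (GRCh38.p14), 33 of the 37 had a promoter entry, and CENPH, CENPL, CENPM and BUB3 did not. The 250 bases before each start were searched on both strands for TTTGAA or TTTAAA (together CHR) and for CCAAT, and no matches overlapped each other. A CHR match of either spelling was present in 9 of 33 (27.3%) and in 22.1% of 27305 genes, which is close, but the spellings parted. TTTGAA was present in 8 of 33 (24.2%) and in 13.6% of all genes, and TTTAAA in 2 of 33 (6.06%) and in 11.4%. CCAAT was present in 17 of 33 (51.5%) and in 33.0% of all genes, and both together in 7 of 33 (21.2%) and 7.85% of all genes. Of the 6 genes that rose in both lines, CENPA, CENPF, HJURP and NCAPD2 held both motifs, while NUF2 and SPAG5 held neither. Of the 20 with an entry that passed in neither line, 3 (15.0%) held both, ZWINT among them. Among the 13 with an entry that rose in at least 1 line, only those 4 genes held both. CCAAT, counted with or without a CHR match, ran the other way, being present in 5 of these 13 and in 12 of the 20. The contrast for both motifs also depended on the window. Within 100 bases before the start, 0 of the 6 held both, beside 2 of the 20 (10.0%) and 1.61% of all genes. The windows shown here run from 160 to 11 bases before the start and let the 4 genes with both motifs be set beside SPAG5, which rose without them, and ZWINT, which has them and passed in neither line. Capitals mark matches on either strand, so that TTTGAA can read TTCAAA and CCAAT can read ATTGG. They lie at chr2:26785896-26786045 on the plus strand for CENPA, chr1:214603035-214603184 on the plus strand for CENPF, chr2:233854546-233854695 on the minus strand for HJURP, chr12:6493942-6494091 on the plus strand for NCAPD2, chr17:28599036-28599185 on the minus strand for SPAG5 and chr10:56361270-56361419 on the minus strand for ZWINT.
CENPA: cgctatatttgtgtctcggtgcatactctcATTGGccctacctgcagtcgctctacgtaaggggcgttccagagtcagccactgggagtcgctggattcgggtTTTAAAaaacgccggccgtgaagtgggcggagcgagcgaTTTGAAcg
CENPF: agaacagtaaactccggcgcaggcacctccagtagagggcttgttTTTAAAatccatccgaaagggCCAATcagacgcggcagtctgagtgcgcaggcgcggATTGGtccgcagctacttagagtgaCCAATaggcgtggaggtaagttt
HJURP: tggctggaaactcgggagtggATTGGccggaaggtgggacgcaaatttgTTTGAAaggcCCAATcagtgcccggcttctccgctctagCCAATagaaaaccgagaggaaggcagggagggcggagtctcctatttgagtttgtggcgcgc
NCAPD2: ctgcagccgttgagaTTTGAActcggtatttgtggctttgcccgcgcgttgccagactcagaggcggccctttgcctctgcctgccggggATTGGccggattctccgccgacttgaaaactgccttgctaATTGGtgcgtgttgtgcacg
SPAG5: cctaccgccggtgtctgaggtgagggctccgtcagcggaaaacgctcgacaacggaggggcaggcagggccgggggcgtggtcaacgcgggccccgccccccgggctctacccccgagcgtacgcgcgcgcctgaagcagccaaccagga
ZWINT: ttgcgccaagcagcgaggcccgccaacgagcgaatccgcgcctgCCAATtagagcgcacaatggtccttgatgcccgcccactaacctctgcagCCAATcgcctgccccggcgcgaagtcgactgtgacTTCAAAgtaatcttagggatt
CENPA holds both CHR spellings, TTTGAA 13 and TTTAAA 52 bases before the start, CENPF a TTTAAA at 110 bases and 3 CCAAT matches, and HJURP a TTTGAA at 106 bases beside a CCAAT. These matches are a description of letters and say nothing of binding.

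The next question was what happens to these genes when KIF20A is depleted. With KIF20A sgRNA in MDA-MB-231 cells, 0 of the 37 passed by limma in either direction, as did 0 of all 12852 genes tested (0.0%). At an unadjusted p under 0.05, 5 of the 37 (13.5%) were higher and 0 lower, against 2.28% and 4.72% of all genes. DESeq2 and edgeR on whole reads called 0 of the 37, and over all genes edgeR called 0 and DESeq2 called 2 higher and 9 lower. KIF20A itself differed by -0.45 (SE 0.16, adjusted p = 0.69 by limma), with separate groups. Of the 37, 29 had values above 0 (78.4%, against 50.4% of all genes), and the median was 0.18, against 0.00 over all genes tested. Medians by group were 0.05 for the inner genes, 0.16 for the outer genes, 0.34 for the shugoshins and 0.25 for condensin.

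The 5 smallest p belonged to CENPF, SGO2, CENPC, SMC4 and NUF2, none past the adjusted threshold (limma, adjusted p 0.69 to 0.694). CENPF was 484, 446 and 444 in control libraries and 621, 695 and 506 in KIF20A sgRNA libraries, on the deposited scale, with separate groups (log2 difference 0.40, SE 0.14). CENPC, at 25.9, 22.1 and 28.1 against 33.5, 30.9 and 33.3, and SMC4, at 242, 224 and 284 against 298, 376 and 284, both had a log2 difference of 0.35; for SMC4 the highest control and the lowest KIF20A sgRNA library round to the same value. SGO2 was 88.6, 97.9 and 129 against 140, 154 and 121, and NUF2 69.5, 72.3 and 102 against 111, 108 and 91.3. In these last genes control replicate 3 was higher than KIF20A sgRNA replicate 3, and the groups overlapped (0.41, SE 0.15, and 0.36, SE 0.16). Groups were separate and higher with KIF20A sgRNA for 6 of the 37 (CENPC, CENPF, HJURP, SKA1, NCAPH and SMC4), and for 0 were they separate and lower, against 5.73% and 7.3% of all genes. CENPA, the histone variant, went the other way with little difference, at 29.0, 37.4 and 25.7 against 32.8, 28.5 and 26.2 (-0.06, SE 0.16).

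Single libraries weighed on these values. The median over the 37 of the log2 difference from the control mean was -0.10, -0.10 and 0.21 in control replicates 1 to 3 and 0.20, 0.24 and 0.10 with KIF20A sgRNA. Control replicate 3 was the highest of its group for 25 of the 37 genes, and KIF20A sgRNA replicate 3 the lowest of its group for 29. Without control replicate 3 the median was 0.29 and 18 genes were higher and 2 lower at an unadjusted p under 0.05, but 0 of the 37 passed the adjusted threshold. The fit as a whole changed too. By limma 7 of all 12852 genes then passed as higher and 137 as lower, and the median of all genes was 0.0. The shares of all genes at an unadjusted p under 0.05 were 2.28% higher and 4.72% lower in the full fit. They are not given for the fit without control replicate 3, so its 18 and 2 genes cannot be set against them. The 14 G2/M genes had a median of 0.17 and the 14 S phase genes one of -0.16, with 13 of 14 below 0 and 0 of either list past the threshold by limma (unadjusted, 1 G2/M gene higher and 2 S phase genes lower). Of the 37 further kinetochore genes, 0 passed by limma, with 3 higher and 2 lower at an unadjusted p under 0.05.

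**Figure D3:**
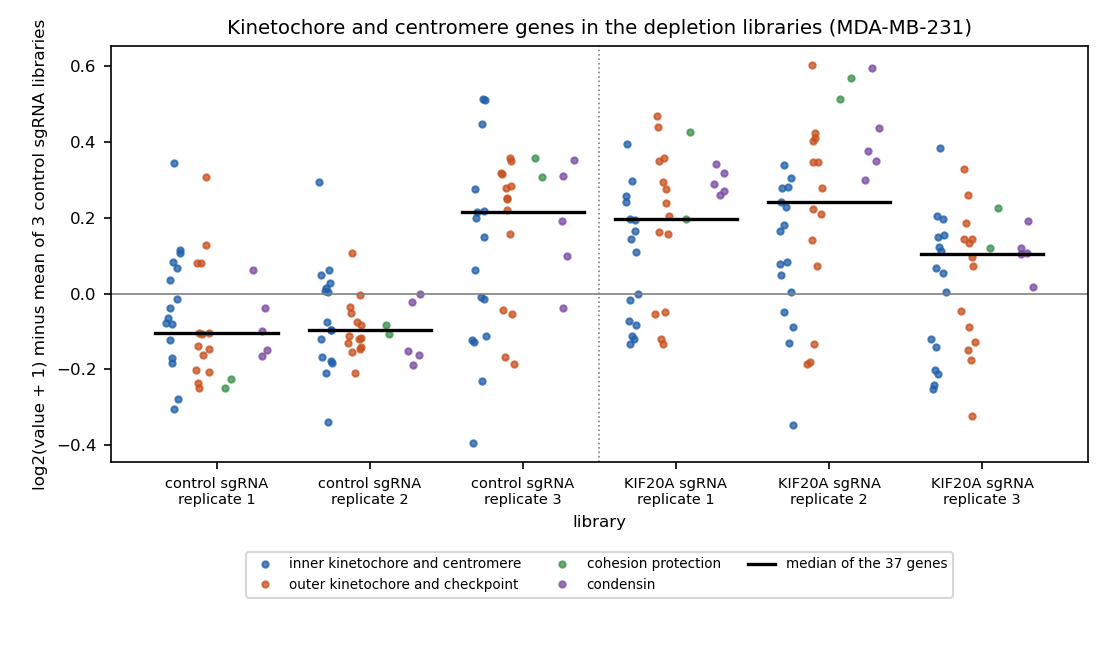
Log2 difference from the mean of the control sgRNA libraries (y axis) for each of the 37 genes (points) in the 3 control sgRNA and 3 KIF20A sgRNA libraries of MDA-MB-231 (x axis), coloured by functional group, with a bar at the median of each library. Control replicate 3 has a median of 0.21, between those of the KIF20A sgRNA libraries (0.10 to 0.24).

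The last comparison was of the libraries labelled KIF20A OE with EV. These differed far beyond KIF20A: of 15265 genes tested, 46.2% were called higher and 23.4% lower, and the median of all genes was 0.37. The 6 embryonic kidney line genes summed to 0.0 to 0.0476 CPM in EV and to 1729 to 2280 CPM in the libraries labelled KIF20A OE. In EV 5 of 6, CDKN2A and IRS4 among them, were at 0. Under the KIF20A OE label IRS4 gave the largest part of the sum, at 1750, 1219 and 1744 CPM. CDKN2A alone does not mark kidney origin. It was 235, 196 and 152 TPM in HCC70 non-BCSCs and 153, 154 and 180 TPM in HCC70 BCSCs, though at most 0.912 TPM in Hs578T. CD44, a marker of mesenchymal-like lines and of the BCSC sort, was 788, 615 and 523 CPM in EV against 0.125, 0.316 and 1.23 CPM. The 7 mesenchymal-like genes summed to 6108 to 6776 CPM and 381 to 844 CPM. Epithelial-like genes, 5 of 6 being listed, summed to 1726 to 2001 and 369 to 474 CPM. The packaging line named in the methods, 293FT, is of embryonic kidney origin. Whether the libraries labelled KIF20A OE hold RNA of that line was not tested. The part of these marker differences in the results for the 37 genes was not tested, and label and cell identity cannot be told apart in these libraries.

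Against EV, 19 of the 37 (51.4%) were higher, a share near the 46.2% of all genes, and 2 (5.41%) were lower, against 23.4%. Fold changes were above 0 for 31 of the 37 (83.8%, against 63.4% of all genes), groups were separate and higher for 21 (56.8%, against 48.9%), and the median was 0.53. Counts higher and lower were 7 and 1 of 16 inner genes (median 0.41), 8 and 1 of 14 outer genes (0.54), 1 and 0 of the shugoshins (0.48) and 3 and 0 of 5 condensin genes (0.61). With the libraries scaled by the median of ratios, 34.2% of all genes were higher and 32.5% lower, and the split of the 37 became 9 higher (24.3%) and 5 lower (13.5%), with a median of 0.17 and 23 of the 37 above 0. CENPQ, BUB3 and SMC2 then passed as lower, as did HJURP and NDC80 under both scalings. Quantile normalization gave 18 of the 37 higher (48.6%) and 3 lower (8.11%), against 36.3% and 30.6% of all genes, with a median of 0.43. Without the replicate 1 labelled KIF20A OE 12 of the 37 were higher and 1 lower, beside 6596 and 3275 of all 15265 genes. Without EV replicate 1, the lowest EV library for 34 of the 37, 13 were higher and 2 lower, beside 6566 and 3410. In both fits the share of the 37 called higher was below that of all genes.

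Members of single complexes moved unequally. CENPH, of the CENP-H/I/K/M complex, was 11.8, 19.3 and 15.3 CPM in EV and 74.1, 82.0 and 82.7 CPM with the KIF20A OE label, the largest difference of the 37 (2.32, SE 0.18, adjusted p = 1.23e-05, or 1.94 above the all-gene median). Its partner CENPM was 12.4, 24.9 and 13.6 CPM against 63.6, 70.8 and 60.2 CPM (1.93, SE 0.25, adjusted p = 0.000184). CENPI rose by 0.80 (adjusted p = 0.0132; it did not pass under the median of ratios), while CENPK, their partner, was 26.3, 49.3 and 53.2 CPM against 41.2, 40.5 and 40.3 CPM (-0.01, SE 0.25). CENPW, the histone-fold partner of CENPT, was 12.7, 25.7 and 19.8 CPM against 59.7, 79.7 and 68.8 CPM (1.83, SE 0.24, adjusted p = 0.000236), and CENPT was 57.7, 54.4 and 61.1 CPM against 127, 100 and 112 CPM (0.95, SE 0.13, adjusted p = 0.000234). CENPP, which overlaps IPPK exons by up to 3720 bases on the opposite strand, was 5.9, 7.54 and 6.41 CPM against 16.7, 12.4 and 18.6 CPM (1.14, SE 0.21, adjusted p = 0.00134). Each of these genes but CENPK had separate groups. The CENP-A chaperone went the other way: HJURP was 92.2, 140 and 145 CPM in EV against 69.9, 76.6 and 81.5 CPM (-0.70, SE 0.18, adjusted p = 0.009). CENPA was 23.2, 42.4 and 34.7 CPM against 34.2, 39.5 and 41.4 CPM and overlapped (0.23, SE 0.22, adjusted p = 0.372).

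In the NDC80 complex, NDC80 was 57.6, 89.7 and 112 CPM in EV against 46.8, 52.4 and 50.6 CPM, and fell (-0.73, SE 0.22, adjusted p = 0.0186). Its partners had values above 0. SPC25 was 12.4, 20.4 and 17.7 CPM against 32.9, 30.9 and 35.2 CPM (0.96, SE 0.20, adjusted p = 0.00257), with separate groups, as were those of SPC24 (0.80, adjusted p = 0.00801), while NUF2 overlapped (0.53, SE 0.20, adjusted p = 0.0402). Under the median of ratios SPC25 passed and SPC24 and NUF2 did not. In the checkpoint, MAD2L1 was 43.9, 75.4 and 90.9 CPM against 165, 195 and 191 CPM (1.44, SE 0.24, adjusted p = 0.000929), and ZWINT 97.1, 170 and 141 CPM against 257, 266 and 219 CPM (0.89, SE 0.20, adjusted p = 0.0042). BUB3, a checkpoint adaptor, was 376, 474 and 447 CPM against 359, 384 and 402 CPM (-0.17, SE 0.12, adjusted p = 0.234). DSN1, MIS12, SKA1, SGO1, NCAPG and NCAPH were called higher by 0.55 to 0.89, as was CENPU by 0.72, and none of these 7 passed under the median of ratios. Under quantile normalization DSN1, MIS12, NCAPG, NCAPH and CENPU passed, and SKA1 and SGO1 did not.

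Condensin ATPases parted as well. SMC4 was 139, 238 and 167 CPM in EV against 350, 339 and 345 CPM (0.96, SE 0.18, adjusted p = 0.00181), with separate groups. SMC2 was 138, 188 and 155 CPM against 156, 111 and 149 CPM (-0.22, SE 0.17, adjusted p = 0.283), and its groups overlapped. Of the 6 genes that rose in BCSCs of both sorted lines, NUF2 was called higher here, HJURP lower, and CENPA, CENPF, NCAPD2 and SPAG5 did not pass (0.23 to 0.45). Of the 14 S phase genes 12 were higher (median 1.26), of the 14 G2/M genes 4 (median 0.33), and of 35 further kinetochore genes tested 21 were higher and 4 lower, beside 46.2% and 23.4% of all genes. SMC1A (1.87), the cohesin ATPase, NCAPH2 (1.86), of condensin II, ESPL1 (1.62) and MIS18A (1.62), of the CENP-A loading machinery, were the largest of that list. Under the median of ratios 9 S phase genes were higher (median 0.89), 2 G2/M genes were higher and 1 lower (median -0.04, so that its sign turned), and 12 of the further kinetochore genes were higher and 7 lower (median 0.20). Under quantile normalization 11 S phase genes (median 1.35) and 7 G2/M genes (median 0.38) were higher and 0 of either lower. Of the further kinetochore genes 20 were then higher and 3 lower (median 0.48), beside 36.3% and 30.6% of all genes.

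**Figure D4:**
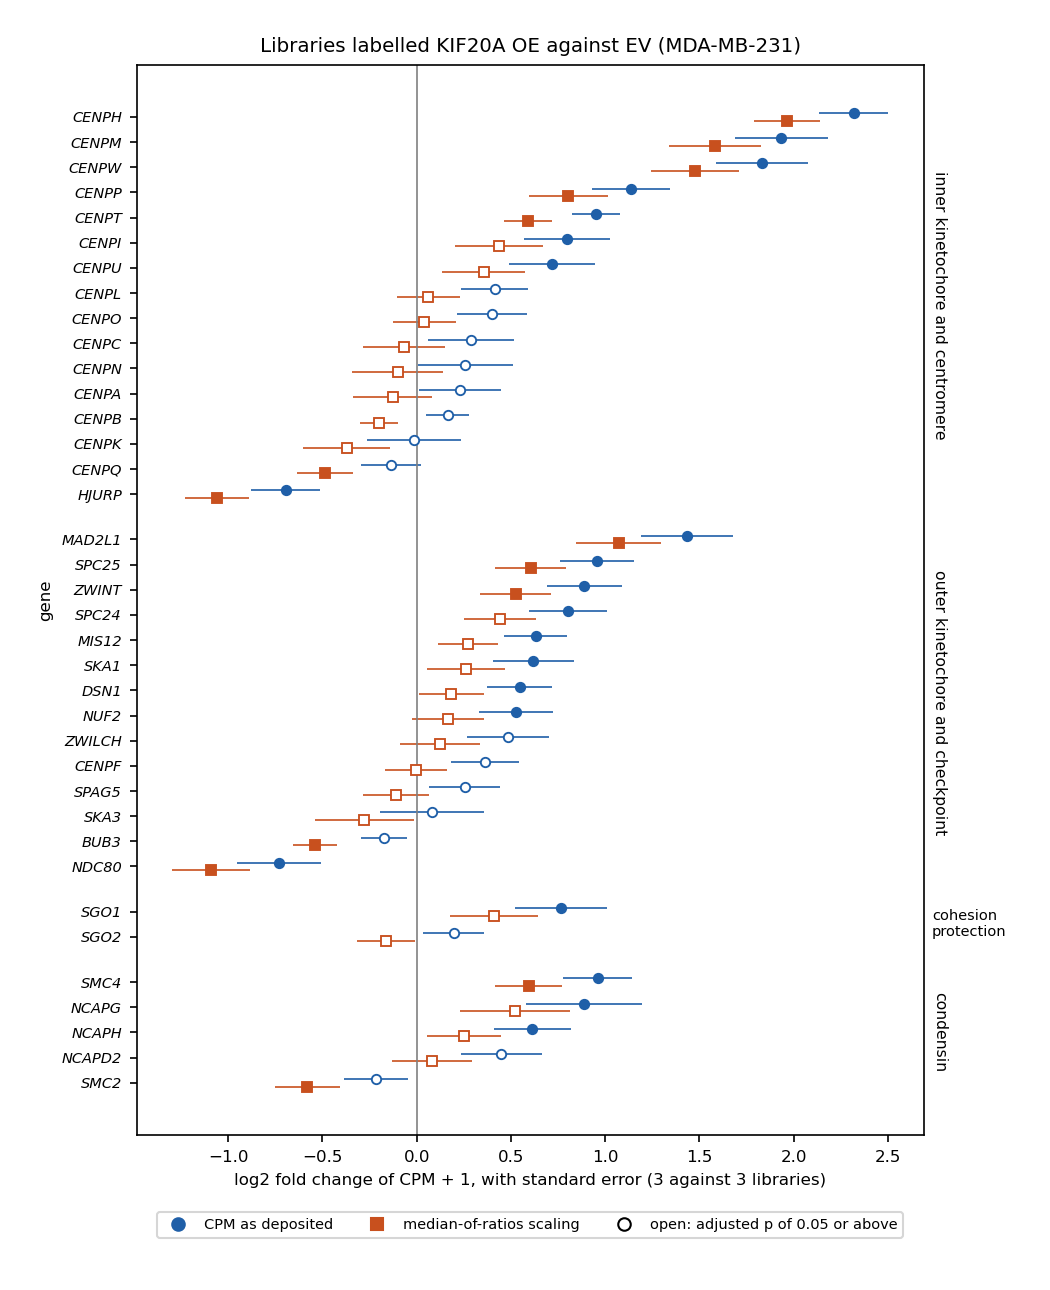
Log2 fold change of CPM + 1 between the libraries labelled KIF20A OE and EV for each of the 37 genes (y axis, by functional group), with CPM as deposited (blue circles) or scaled by the median of ratios (orange squares), bars of 1 standard error from 3 against 3 libraries and filled symbols for an adjusted p under 0.05. As deposited, CENPH lies farthest above 0, at 2.32, and HJURP (-0.70) and NDC80 (-0.73) lie farthest below. After rescaling the lowest inner gene lies at -1.06 and the lowest outer gene at -1.09, and fewer symbols are filled.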

How the data were processed

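Poly-A RNA of 24 libraries was sequenced on stranded, paired-end libraries, and the authors aligned the reads to GRCh38. The submitters' processing notes name HISAT2 2.0.5 and featureCounts 1.5.0-p3; the strand setting of the counting is not given in the sources used here. For both sorted lines the deposited tables are of TPM, which the authors scaled by transcript length and to 1 column total. The deposited depletion table holds a normalised signal, reads that the authors divided by 1 factor per library, with column totals of 977394 to 1028621. The deposited overexpression table holds CPM, which the authors made from reads without a length term. Whole reads were recovered in the last 2 tables for 100% of values above 0 (tolerance 0.02 reads), and from ratios between libraries for the TPM tables. The libraries held 28403151 to 33973761 reads for Hs578T and 24984030 to 33986022 for HCC70. Those of MDA-MB-231 held 41424338 to 51018667 reads (depletion) and 15971297 to 22182293 (overexpression).

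Older symbols were updated. Genes whose mean reached 1 over the 6 libraries of a comparison were tested by limma 3.58.1 with a trend (R 4.3.3) on log2(value + 1), 3 against 3, which understates changes of low genes. The interaction used the genes tested in both sorted tables, which were normalised separately. Alternatives were a pseudocount of 0.1, no minimum or one of 5, the median of ratios, quantile normalization, a replicate block, each library left out, and edgeR 4.0.16 and DESeq2 1.42.0 on whole reads. Scripts were tested on simulated data. The 37 genes, the further kinetochore list, the cell cycle lists and the markers were chosen with earlier results of these data known. Values are given for the genes that define each functional group and those that passed in a comparison, or the 5 smallest p where none passed; of the further list, at most 4 per comparison by size of change among those that passed. CENPK in the overexpression experiment was named after its value was seen, as the partner of CENPH. Gene places and exon overlaps are from GENCODE 44, and promoters from RefSeq. Other steps used pandas 2.3.3, numpy 2.4.6, matplotlib 3.10.9 and Python 3.11.15.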

Additional observations from a re-analysis of the deposited data

Results flagged for a closer look

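For 3 of the 37 genes the BCSC effect differed between the sorted lines by the interaction test in limma, larger in HCC70 for each, a share (8.11%) beside 5.62% of all genes with a larger effect in HCC70. CENPF rose by 0.32 in Hs578T and 0.70 in HCC70, a difference of 0.38 (SE 0.09, adjusted p = 0.0286), and all 3 BCSC libraries exceeded all 3 non-BCSC libraries in both lines. CENPT differed by 0.02 in Hs578T and rose by 0.31 in HCC70, a difference of 0.29 (SE 0.07, adjusted p = 0.0265). NCAPH had log2 fold changes of 0.15 and 0.48, a difference of 0.32 (SE 0.08, adjusted p = 0.0386). Line, batch and table are the same factor here and cannot be told apart. When each of the 12 libraries was left out in turn, the differences ranged over 0.32 to 0.44, 0.25 to 0.32 and 0.27 to 0.36, but 0 of the 37 passed in 6 of these 12 fits, where 7 or 8 had an unadjusted p under 0.05 and a larger value in HCC70. With the replicate block 0 passed in limma (7 at an unadjusted p under 0.05), and under the median of ratios 1 did, CENPF. In the full fit 18.4% of all genes had an unadjusted p under 0.05 and a larger value in HCC70. That share is not given for the fits with a library left out or with the block.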

How the results depend on the processing

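For KIF20A, the genes that passed and the 5 smallest p of the depletion, 591 of 754 values under the alternatives kept direction and side of the threshold, 163 kept only direction, and none reversed. Other genes did turn: under the median of ratios those of the 37 above 0 went from 31 to 23 in the overexpression experiment and from 33 to 30 in HCC70. In Hs578T the count of 9 became 15 under the median of ratios and 20 by edgeR and 20 by DESeq2 on whole reads, and 2 to 9 with 1 library left out. In HCC70 the count of 11 became 6 with a replicate block, 17 by DESeq2, and 1 to 9 with 1 library left out. Over all genes, leaving out 1 library gave 144 to 396 higher calls in Hs578T and 22 to 185 in HCC70. The full fits gave 386 and 301. The depletion count was 0 under every alternative run. In the overexpression experiment the count of 21 (both directions) ranged from 13 to 21 with 1 library left out. For the difference between lines the count of 3 became 1 under the median of ratios, 0 with the replicate block and 0 to 6 with 1 library left out. Over all genes, 237 to 913 were called above 0 with 1 library left out, against 656 in the full fit. Leaving out a library also leaves fewer samples in the fit; other causes were not tested. Same-numbered deviations correlated at -0.063 to 0.046 (Hs578T), -0.074 to 0.185 (HCC70), -0.161 to -0.045 (depletion) and 0.014 to 0.058 (overexpression). Some unlike-numbered libraries of the depletion correlated more, at up to 0.276. Deviations from a mean of 3 libraries cannot decide whether libraries were paired. With 100 bases before the start in place of 250, a CHR match was present in 15.2% of the promoters of the 37 genes with an entry and 8.33% of all genes, and CCAAT in 39.4% and 18.7%.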
